A study of Talaromyces verruculosus with 6 samples.

Results

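Small contigs of the Talaromyces verruculosus TS63-9 genome, each holding from 3 to 20 annotated genes, carry 748 of the 11326 genes in the deposited tables (6.60%) and make up 88 of its 286 contigs. They were chosen by counting the genes listed for each contig, with no use of expression, and are set beside the 6529 genes on the 32 contigs of 100 or more genes, called large contigs here. At the lower limit, 12 contigs held 3 genes and a further 28, not included, held 2. At the upper limit, 1 contig held 20 genes and 1, not included, held 21. Expression was measured in growing mycelium of this 1 strain, a filamentous fungus: 3 control cultures in basic medium had no pectin, and 3 cultures in basic medium had pectin at 5 g/L, all taken after 24 h. RNA was purified on poly-T beads and read as paired ends, and the series describes the cultures as biological replicates. Exon reads per library lay between 10320372 and 11393959, and 672 to 679 of the 748 genes had at least 1 read in a given library.

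A contig is a stretch of genome that an assembler joined without a break, and short contigs are what remains where sequence could not be joined further, often beside repeats or near-identical copies. Filamentous fungi often keep genes of one metabolic pathway side by side and switch them on together, and regions near chromosome ends are known to be rich in such clusters. Pectin is a plant cell wall polysaccharide that many soil fungi digest with secreted enzymes and use as a carbon source. The files name genes by locus tag only and pair no tag with a gene name or product, so genes are described here by contig, order along the contig and structure, and no function is given. Order is counted from the start of the contig by annotated position, and coordinates are those in the files.

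The genes on small contigs were sparser and simpler in structure than those on large contigs. The median small contig held 7 genes, against 159.5 on large contigs. The median coding length was 1197 bases against 1305, the median gene had 2 exons against 3, and 224 genes (29.95%) had a single exon against 1400 (21.44%). The gap between neighbouring annotated genes had a median of 1308 bases (quartiles 647.5 and 2639), against 822 (461 and 1613) on large contigs. As the choice by genes per contig fixes, 176 of the 748 genes (23.53%) are first or last on their contig, against 64 of 6529 (0.98%). On 5 small contigs the first gene started within 3 bases of the contig's first base, against 1 large contig, so these gene models begin at the edge of the assembled sequence. Neighbours lay on the same strand in 45.91% of pairs, against 42.11%. These are properties of the annotation and were not tested.

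Transcript levels on small contigs were lower. The deposited RPKM, reads per kilobase of exon scaled to the mapped reads of the library, averaged over the 6 libraries, had a median of 4.26 over the 748 genes (quartiles 0.576 and 19.8) and of 10.5 over the genes on large contigs (1.44 and 33.7). On small contigs 186 genes (24.87%) stayed under 1 RPKM in every library, against 1139 (17.45%), and 24 (3.21%) had no exon read in any library, against 148 (2.27%). A count of 0 allows up to 3 reads per library, or 0.246 to 0.297 CPM (counts scaled to a common library total with TMM factors), and covers counting error only. At the other end, 35 genes (4.68%) averaged over 100 RPKM, against 597 (9.14%).

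The difference in level held in each library. Per library, the median of log2(RPKM + 1) was 2.36, 1.98 and 2.22 on small contigs in control and 2.17, 2.18 and 2.20 with pectin. On large contigs the same median was 3.67, 3.47 and 3.51 in controls and 3.31, 3.42 and 3.39 with pectin. The difference, small minus large, was −1.28 ± 0.12 (SD over 6 libraries) and ranged from −1.49 to −1.15. The small-contig median did not move detectably with pectin (difference −0.0045, exact permutation test over libraries, two-sided p = 1.0), while the large-contig median was lower in every pectin library (−0.18, exact permutation p = 0.1, the smallest that 3 against 3 allows). These RPKM medians are not TMM scaled, with TMM factors of 1.02 to 1.18 in controls and 0.903 to 0.945 with pectin. The contrast was not seen in the changes per tested gene. Their median log2 fold change was −0.095 on small and −0.0032 on large contigs with TMM factors, and −0.306 and −0.210 with library size alone. Within small contigs the level followed contig size: the median of mean RPKM was 8.36 on contigs of 3 to 5 genes, 6.05 on those of 6 to 10 and 2.87 on those of 11 to 20. Outside the chosen range it was 13.6 on contigs of 1 or 2 genes, 6.25 on those of 21 to 50 and 9.79 on those of 51 to 99. A level below that of large contigs was therefore not particular to small contigs, and it was lowest on those of 11 to 20 genes. End genes had a median of 5.71 RPKM and inner genes 3.78, and end genes are a larger share of the contigs with fewer genes. Position was not told apart from contig size. Over the 10 measures per library tested in this way, the lowest Benjamini-Hochberg adjusted p was 0.1429.

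The design asks which genes are expressed more or less strongly with pectin, and small contigs gave many and large rises. Of the 748 genes, 561 (75%) had enough reads to be tested and 187 did not. By edgeR's quasi-likelihood test on exon reads, with Benjamini-Hochberg adjustment over all 9177 genes tested and a threshold of 0.05, 79 of the 561 (14.08%) were higher with pectin, beside a background of 9.20% over all tested genes, and 468 of 5414 (8.64%) were higher on large contigs. Lower with pectin were 49 (8.73%), beside a background of 7.00%, and 382 (7.06%) on large contigs. Scaled by library size alone, small contigs gave 70 higher and 69 lower, and large contigs 289 and 555; under that scaling the median over all tested genes was −0.21 in place of −0.0061 on the log2 scale. The share of genes called higher was above that of large contigs in the main test and in all 15 alternative fits. The pectin libraries all lay above the controls in RPKM in 78 of the 79 genes, and the controls all lay above the pectin libraries in 49 of the 49 that fell. The same held for 465 of the 468 rising and 382 of the 382 falling genes of large contigs, so this separation is not particular to small contigs. The difference in these shares between small and large contigs was not tested, because neighbouring genes on a contig are not independent.

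Large rises were frequent. At least 2-fold higher were 74 genes (13.19%, background 6.08%), and 43 (7.67%, background 5.49%) were at least 2-fold lower. At least 8-fold higher by fitted change were 42 genes (7.49%) on 19 contigs, beside a background of 1.84% and beside 82 genes (1.51%) on large contigs. At least 16-fold higher were 29 genes, beside 55 on large contigs. At least 64-fold higher were 8 genes, beside 22 on large contigs. By number, more of these rises thus lay on large contigs, which had 5414 tested genes against 561. On small contigs 1 gene that rose had no control reads. With that gene set at a floor of 3 reads per library, the small-contig counts at 8-, 16- and 64-fold were 41, 28 and 7. That gene, gene 4 of LHCL01000111, was at 0 RPKM in all 3 controls and at 0.85, 0.95 and 0.71 RPKM with pectin, at least 5.09-fold higher. Falls were smaller than rises: 14 genes (2.50%) were at least 4-fold lower, against 96 (1.77%) on large contigs, and 0 were at least 8-fold lower, against 24 (0.443%). By edgeR the largest fall on small contigs was 2.95 on the log2 scale. Over all 561 tested genes the median log2 fold change was −0.095 (quartiles −0.52 and 0.45), against −0.0032 (−0.38 and 0.36) on large contigs.

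The share of genes that rose depended on contig size within the small contigs. It was 22.32% on contigs of 3 to 5 genes, 20.16% on those of 6 to 10 and 8.92% on those of 11 to 20. Contigs of 21 to 50 genes (9.01%), 51 to 99 (8.61%) and 100 or more (8.64%) had shares close to that of 11 to 20, while 25.77% of tested genes on contigs of 1 or 2 genes rose. Falls had another pattern, at 7.14%, 3.23% and 11.38% on contigs of 3 to 5, 6 to 10 and 11 to 20 genes. Of the 49 genes that fell, 19 lay on only 2 contigs, LHCL01000109 and LHCL01000127, both in the group of 11 to 20. End genes rose in 27 of 147 tested cases (18.37%) and inner genes in 52 of 414 (12.56%), while 10 (6.80%) and 39 (9.42%) fell. Contigs with fewer genes have a larger share of end genes, so position and contig size were not told apart.

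**Figure D1:**
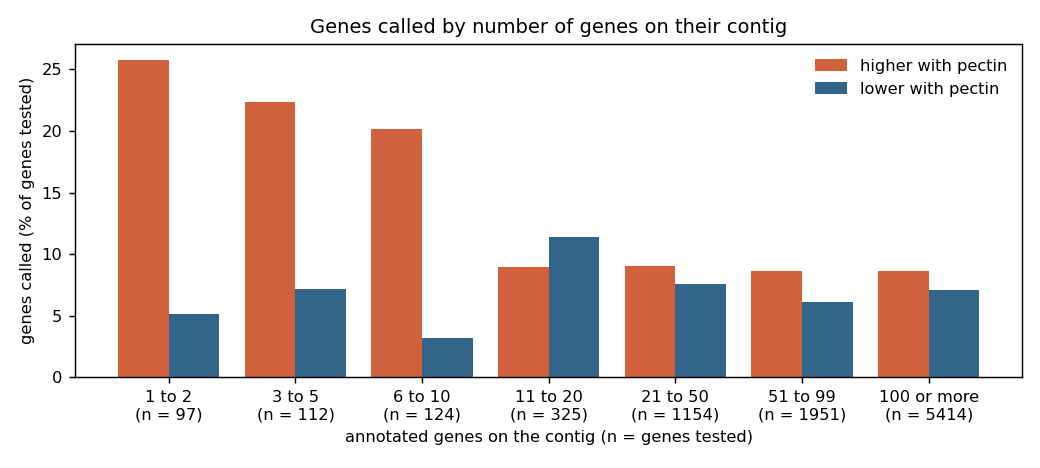
Bars give the percentage of tested genes that were higher (orange) or lower (blue) with pectin at an edgeR adjusted p under 0.05, by the number of annotated genes on the contig, with the number of genes tested under each pair. The bars for higher genes stand at 25.77%, 22.32% and 20.16% in the 3 leftmost groups and between 8.61% and 9.01% in the other 4.

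Changed genes on small contigs were concentrated on few contigs and lay beside each other. Of the 88 contigs, 38 held at least 1 gene that rose, 24 at least 1 that fell, 11 held both, and 37 held no called gene, of which 2 (LHCL01000175 and LHCL01000215) held no gene that could be tested. The 11 contigs with at least 3 rising genes held 45 of the 79 (56.96%). The 3 contigs with at least 3 falling genes held 23 of the 49 (46.94%). Of 408 pairs of neighbours that were both tested, 34 (8.33%) were both at least 2-fold higher and 16 (3.92%) both at least 2-fold lower. On large contigs each count was 53 of 4735 pairs (1.12%). On contigs of 1 or 2 genes, 3 of 21 pairs (14.29%) were both higher and 0 both lower. Single genes at least 2-fold higher were also more frequent on small than on large contigs (13.19% against 5.56%), as were those at least 2-fold lower (7.67% against 5.32%). A higher share of single genes raises the share of pairs by itself, and its part in the contrast was not tested.

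Exon reads were also summed over all genes of each contig, which uses the reads of genes too low to test singly. In edgeR's test over the 272 contigs tested, 18 of 87 small contigs (20.69%, beside a background of 22.8%) were higher with pectin, 8 (9.20%, background 7.35%) were lower, and 61 were not called. By share of contigs called, small contigs were thus near the background in both directions. They differed in size of change: 10 of the 18 rose at least 4-fold, and log2 fold changes spanned −1.57 to 5.85, while the 32 large contigs, of which 7 were higher and 1 lower, spanned −0.25 to 0.68. A sum over 100 or more genes averages many unlike changes, so these ranges describe sums of unequal size. In all 18 contigs every pectin library lay above every control, and in all 8 every control lay above every pectin library. The same was not counted for called contigs of other sizes.

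**Figure D2:**
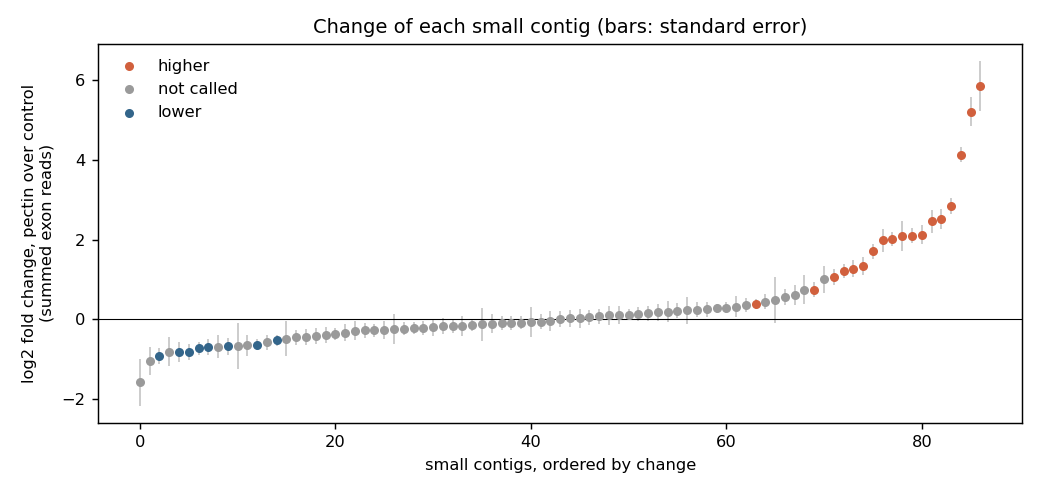
Each point is a small contig tested by its summed exon reads, ordered by the log2 fold change of pectin over control, with bars for the standard error; colour gives the call by edgeR at an adjusted p under 0.05. The 61 contigs that were not called lie mostly close to 0, the 18 called higher reach 5.85, and 10 of these lie above a change of 4-fold, or 2 on this scale.

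LHCL01000195 had the largest rise of the small contigs, and it rose along its whole length. Its 4 genes lie between 91 and 14597, and their summed RPKM was 9.16, 11.4 and 39.2 in the 3 controls and 1006, 1009 and 1301 in the 3 pectin libraries, each in order of library number. Every pectin library was far above every control, and control 3 was above the other controls. The summed reads changed by 5.85 on the log2 scale (standard error, SE, 0.63; edgeR adjusted p = 0.00058). All 4 genes rose, by 4.20, 4.96, 5.46 and 6.16 on the log2 scale in order along the contig. Gene 4, a 3-exon gene at 13748 to 14597, carried most of the level, with 6.11, 6.50 and 29.3 RPKM in controls and 843.9, 831.8 and 1091 RPKM with pectin. Gene 1 is a single-exon gene of 318 coding bases starting 91 bases from the contig's start, and 70.2% of the reads counted for it fell outside its exon.

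LHCL01000118 took more of the transcriptome than any other small contig that rose. Its 14 genes had a summed RPKM of 215.3, 170.9 and 339.0 in controls and 6367, 6561 and 8019 with pectin. Its share of exon reads went from 0.0536 ± 0.0243% to 1.75 ± 0.177% (SD, n = 3 each) (log2 fold change 5.22, SE 0.37, edgeR adjusted p = 0.000118). The contig divides into parts: genes 7 to 14 rose, while among genes 1 to 6 only gene 4 was called, and it fell by 1.13 on the log2 scale (edgeR adjusted p = 0.0216). Gene 2, outside the rising stretch, had 19.1, 18.8 and 22.5 RPKM in controls and 16.3, 17.6 and 22.5 with pectin.

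ZTR_09821 and ZTR_09820, genes 12 and 11 of LHCL01000118, were the most abundant rising genes of the small contigs by CPM. ZTR_09820 is a 12-exon gene of 3519 coding bases on the plus strand at 41754 to 46280. It had 2.83, 2.74 and 11.2 RPKM in controls and 277.5, 289.1 and 351.3 RPKM with pectin, with control 3 above the other controls. By edgeR its log2 fold change was 5.90 (SE 0.67, adjusted p = 0.00185), and it ran from 5.52 without control 1 to 6.93 without control 3. ZTR_09821 lies downstream on the same strand and reached 4449 RPKM in pectin library 3. Gene 9 of this contig, with 3 exons and only 474 coding bases, had 11.4, 13.9 and 55.1 RPKM in controls and 1310, 1184 and 1756 RPKM with pectin. The edge of the rising stretch was graded: gene 7 rose by 1.72 on the log2 scale and gene 8 by 5.83.

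LHCL01000202 holds 3 genes, of which the first pair rose and the third did not. The summed RPKM was 31.7, 22.7 and 42.3 in controls and 691.4, 734.1 and 855.9 with pectin (log2 fold change 4.14, SE 0.18, edgeR adjusted p = 2.1e-06). Genes 1 and 2, which face away from each other on opposite strands and have 3 exons each, rose by 6.20 and 6.02 on the log2 scale. Gene 3 had 27.8, 17.6 and 17.0 RPKM in controls and 17.2, 17.4 and 16.1 with pectin (log2 fold change −0.13, edgeR adjusted p = 0.67).

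On LHCL01000164 a single gene made the rise. Its summed RPKM was 6.51, 6.13 and 9.43 in controls and 92.6, 88.0 and 118.3 with pectin (log2 fold change 2.85, SE 0.20, edgeR adjusted p = 3.6e-05). Gene 1, with 1 exon and 795 coding bases, went from 0.31, 0.70 and 4.10 RPKM to 87.9, 81.9 and 111.5. Of the other 7 genes, 4 had too few reads to test and 3 were not called, the highest of them at 3.06 to 4.65 RPKM.

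LHCL01000128 rose over its first 7 genes, and no tested gene beyond them was called. The summed RPKM of its 17 genes was 102.4, 93.9 and 119.7 in controls and 290.3, 390.9 and 461.5 with pectin (log2 fold change 2.52, SE 0.25, edgeR adjusted p = 0.000125). Genes 1 to 7, between 899 and 18937, rose by 3.48 to 4.15 on the log2 scale. Of genes 8 to 17, 8 were tested and none was called, with log2 fold changes from −0.23 to 1.38 (edgeR). The last called gene thus lay within this contig, not at its end.

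Of the small contigs with at least 3 tested genes, besides LHCL01000195, all tested genes rose on LHCL01000227 (3 of 3, with the fourth gene under the filter) and LHCL01000248 (3 of 3), and on 0 of them did all tested genes fall. LHCL01000227 had a summed 14.1, 24.8 and 25.7 RPKM in controls and 68.4, 101.5 and 136.6 with pectin (log2 fold change 2.46, edgeR adjusted p = 0.00035). Its gene 2, with 2 exons and 1773 coding bases, was even within groups, at 5.83, 5.91 and 6.60 RPKM in controls and 32.2, 35.7 and 39.8 with pectin. LHCL01000248 had a summed 65.4, 68.7 and 84.2 RPKM in controls and 147.0, 150.0 and 195.7 with pectin (log2 fold change 1.28, edgeR adjusted p = 0.00249).

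**Figure D3:**
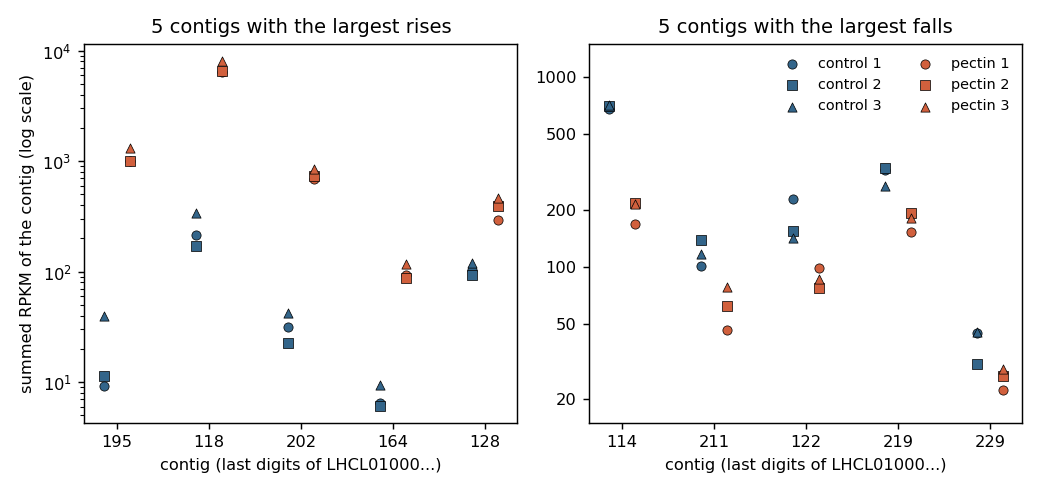
Points give the RPKM summed over the genes of a contig in each library, on a log axis, for the 5 contigs with the largest rises (left) and the 5 with the largest falls (right) among those called; blue is control, orange is pectin, and the marker shape gives the library number. On the left the groups are far apart and control 3 (blue triangle) is the highest control on each contig, from 9.43 on LHCL01000164 to 339.0 on LHCL01000118; on the right the groups are apart by less.

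The contigs that fell did so by less than 2-fold. LHCL01000114 had a summed 683.7, 701.5 and 716.3 RPKM in controls and 168.4, 218.0 and 215.5 with pectin, and its summed reads fell by 0.91 on the log2 scale (SE 0.20, edgeR adjusted p = 0.0104). Gene 7, a 3-exon gene of 414 coding bases at 36125 to 36664 on the minus strand, was the only one of its 12 genes that was called. It had 569.2, 571.2 and 596.5 RPKM in controls and 81.4, 105.8 and 79.0 with pectin, with controls close together (log2 fold change −2.56, SE 0.19, edgeR adjusted p = 0.000362). Summed RPKM weighs this short gene more than summed reads do, and the groups lie further apart in the RPKM sums than in the reads.

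LHCL01000219 fell through its gene 4, which had 294.7, 278.6 and 231.4 RPKM in controls and 130.5, 159.1 and 138.8 with pectin; its summed reads fell by 0.72 on the log2 scale (edgeR adjusted p = 0.0104). LHCL01000122 had a summed 226.7, 153.8 and 141.9 RPKM in controls and 98.9, 77.7 and 86.5 with pectin (log2 fold change −0.81, SE 0.20, edgeR adjusted p = 0.016), with 4 of 9 tested genes called lower; 8 of its 17 genes were too low to test. Its call was lost without pectin 2 (edgeR adjusted p = 0.0904) or pectin 3 (0.067). LHCL01000211 had a summed 101.2, 138.3 and 117.0 RPKM in controls and 46.5, 62.3 and 78.6 with pectin (log2 fold change −0.81, edgeR adjusted p = 0.0407). None of its 3 genes was called singly, and leaving out any one library other than control 1 ended its call, with adjusted p from 0.0535 to 0.139.

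LHCL01000229 held opposite changes. Its summed RPKM was 44.9, 30.6 and 45.1 in controls and 22.3, 26.6 and 29.0 with pectin (log2 fold change −0.69, edgeR adjusted p = 0.0324). Gene 5 fell by 1.61 on the log2 scale (edgeR adjusted p = 0.00413). Gene 2 rose by 2.71, from 3.94, 1.06 and 0.81 RPKM to 8.94, 9.73 and 14.5 (edgeR adjusted p = 0.0151). Its call was lost when reads outside exons were added (log2 fold change −0.21, edgeR adjusted p = 0.441) and without control 3 or any one pectin library (0.0724 to 0.108).

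The most abundant falling genes of the small contigs lay on LHCL01000112 and LHCL01000143, both called lower by summed reads, LHCL01000112 in all 15 alternative fits and LHCL01000143 in 13. ZTR_09756 is gene 5 of LHCL01000112, at 12573 to 13908 on the plus strand, with 3 exons and 1236 coding bases. It had 919.6, 460.2 and 696.1 RPKM in controls and 187.1, 293.3 and 180.8 with pectin, and the groups did not overlap although the controls spread widely. By edgeR its log2 fold change was −1.48 (SE 0.29, adjusted p = 0.0163), and the call was lost without pectin 1 (0.0599) or pectin 3 (0.0522). Gene 4 beside it, on the opposite strand, fell by 2.90 from 2.47, 2.10 and 6.55 RPKM to 0.62, 0.24 and 0.48 (edgeR adjusted p = 0.0187, at most 0.0799 over the alternatives), and gene 17 at the other end rose by 1.41 on the log2 scale (edgeR adjusted p = 0.00129). The summed reads of LHCL01000112 fell by 0.63 (edgeR adjusted p = 0.00773). ZTR_10442 is gene 7 of LHCL01000143, at 33353 to 36198 on the plus strand, with 6 exons and 2385 coding bases. It had 166.2, 112.3 and 113.6 RPKM in controls and 51.2, 36.9 and 47.5 with pectin (log2 fold change −1.37, SE 0.20, edgeR adjusted p = 0.00506). It was the only called gene of the 9 on its contig, all of which were tested.

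LHCL01000109 and LHCL01000127 held the most falling genes, yet neither was called as a whole; LHCL01000127 was called in 4 of 15 alternative fits, among them without control 3 (edgeR adjusted p = 0.0249) and without pectin 1 (0.0455), and LHCL01000109 in 1. On LHCL01000109, 12 of 18 tested genes fell and 1 rose. Genes 1 to 5 and 7 to 13 fell by 1.49 to 2.95 on the log2 scale, while gene 6 between them did not pass the test, with 98.2, 45.0 and 30.3 RPKM in controls and 66.1, 118.9 and 50.2 with pectin (log2 fold change 0.63, edgeR adjusted p = 0.377). Gene 12, in the falling stretch, had 32.6, 19.7 and 20.8 RPKM in controls and 2.94, 3.83 and 4.60 with pectin (log2 fold change −2.52, edgeR adjusted p = 0.00102). Gene 6 had the highest RPKM of the contig in each of the 6 libraries, and the summed reads of the contig had a log2 fold change of −0.68 (edgeR adjusted p = 0.107).

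On LHCL01000127, 7 of 14 tested genes fell and all 14 had negative log2 fold changes, from −0.43 to −2.33. Control 1 was the highest library for each of the 14 genes: the summed RPKM was 4145, 2039 and 1635 in controls and 1448, 1120 and 844.8 with pectin. The summed reads had a log2 fold change of −1.04 (edgeR adjusted p = 0.0642), which was −0.66 without control 1. Gene 11, the most abundant, had 1560, 811.9 and 604.5 RPKM in controls and 525.2, 351.1 and 257.6 with pectin and was not called (edgeR adjusted p = 0.0814). Over all small-contig genes at least 2-fold lower, control 1 was the highest control in 35 of 43 (81.4%), and on large contigs in 236 of 288 (81.94%), so this feature was shared. These ranks use RPKM without TMM scaling, and control 1 had the largest TMM factor of the controls (1.183 against 1.024 and 1.027). The same share over all tested genes was not taken, so it is not known to be particular to falling genes. The part of control 1 in the falls was not tested.

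Of the 3 small contigs with the highest mean RPKM, only LHCL01000118 was called. LHCL01000126 had a summed 4892, 4936 and 5720 RPKM in controls and 5376, 2957 and 4740 with pectin, with overlapping groups (log2 fold change −0.10, SE 0.23, edgeR adjusted p = 0.754). Its gene 2, a single-exon gene of 2445 coding bases, gave most of this, at 2335 to 4905 RPKM. LHCL01000210 varied among libraries of one group: its gene 2, with 1 exon and 2784 coding bases, had 574.7, 2477 and 1636 RPKM in controls and 1179, 2445 and 2678 with pectin (log2 fold change 0.51, SE 0.58, edgeR adjusted p = 0.603).

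The share of the transcriptome on small contigs was higher in every pectin library, and 1 contig decided its direction. It was 6.32%, 6.41% and 6.02% of exon reads in controls and 7.30%, 7.42% and 8.34% with pectin (6.25 ± 0.20% and 7.69 ± 0.57%, n = 3 each; permutation test over libraries, exact p = 0.1, which this design cannot go below; 0.143 adjusted over 10 measures). Without LHCL01000118 the direction turned: the share was then 6.20 ± 0.22% in control and 5.94 ± 0.40% with pectin (exact permutation p = 0.4). The 18 contigs called higher went from 0.423 ± 0.0466% to 2.91 ± 0.358%, and the other small contigs from 5.83 ± 0.242% to 4.78 ± 0.267%, groups that were formed from the same reads. The share on large contigs was 62.6 ± 0.131% in control and 61.0 ± 0.611% with pectin (exact permutation p = 0.1).

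Control 3 stood apart from the other controls in the strongly rising genes of small contigs. Of the 41 genes at least 8-fold higher that had a control read, 35 (85.37%) had their highest control RPKM in control 3, against 11 of 79 (13.92%) on large contigs and 10 of 11 (90.91%) on contigs of 1 or 2 genes. On contigs of 21 to 99 genes this held for 13 of 34 (38.24%). Among the 37 small-contig genes with a read in control 1, the median ratio of control 3 to control 1, in CPM with TMM factors, was 3.79 (quartiles 2.62 and 5.45). Among the 77 such genes on large contigs it was 0.685 (0.449 and 0.958). Over all tested genes the same median was 0.952 on small and 1.01 on large contigs.

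The control 3 levels remained far below those with pectin: gene 4 of LHCL01000195 had 29.3 RPKM in control 3 and at least 831.8 in every pectin library. Over the 40 genes with a read in control 1 or 2, the median log2 fold change was 5.50 without control 3, in place of 4.56. Over the 79 such genes on large contigs it was 4.44 in place of 4.42. An exception was LHCL01000173, where genes 5 and 7 rose by 3.96 and 4.18 on the log2 scale and control 3 was the lowest control for both, at 0.52 and 0.35 RPKM against 1.59 and 1.79 in control 1. The 41 genes lie on 19 contigs, and neighbours on a contig are not independent observations. The cause of the control 3 levels was not tested.

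**Figure D4:**
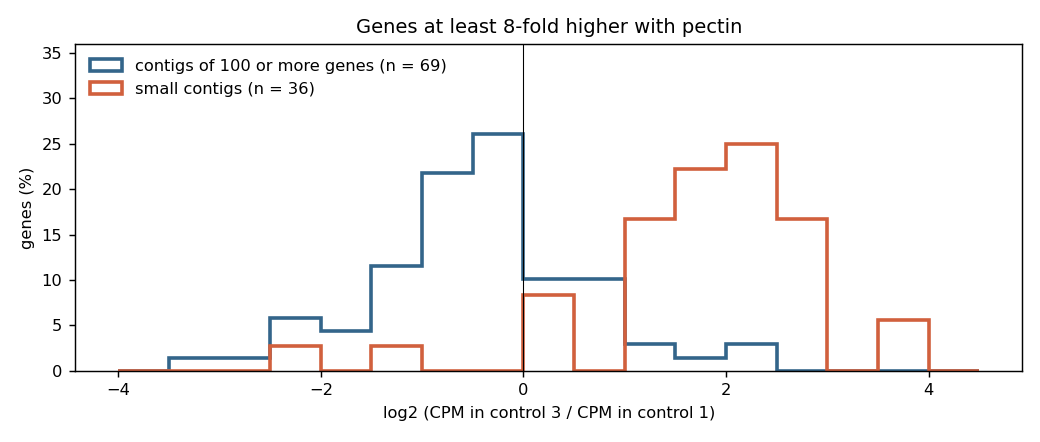
Step histograms give the percentage of genes at least 8-fold higher with pectin by the log2 ratio of CPM in control 3 to control 1, for small contigs (orange, 36 genes) and large contigs (blue, 69 genes), leaving out genes without a read in control 1 or control 3. The ratio is above 0 in 34 of the 36 genes on small contigs and in 19 of the 69 on large contigs.

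Reads that could be placed at more than 1 position in the genome were rare but collected on small contigs. Over the 6 libraries, 3405 exon reads were not unique, on 55 genes; 2044 of them (60.03%) lay on 32 genes of small contigs, 34.01% on contigs of 1 or 2 genes, and 4 genes of large contigs had any. In controls 0.0301 ± 0.0062% of the exon reads on small contigs were not unique, and with pectin 0.0559 ± 0.0105% (n = 3 each; permutation test over libraries, exact p = 0.1). Of the 32 genes, all of them tested, 18 (56.25%, background 9.20%) were called higher and 0 (background 7.00%) lower by edgeR, and 6 held 89.48% of the reads. A gene entered this list with at least 1 such read over the 6 libraries, so a high level with pectin could itself bring it in. The share of rising genes is therefore not independent of how the list was formed. With unique reads alone, 79 genes on small contigs were higher and 49 lower.

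Such reads led to stretches that match between contigs, which were chosen after their values were seen. Genes 1 to 3 of LHCL01000121 and genes 3 to 5 of LHCL01000128 have the same order and strand, coding lengths of 3573, 624 and 2367 bases against 3558, 624 and 2367, and annotated spans of 4700, 670 and 2417 bases against 4714, 670 and 2417. The short middle gene had 37.8% of its reads not unique on LHCL01000121 and 44.6% on LHCL01000128, while the other genes of the block had 0.316% to 0.779%. Counts of the middle pair are therefore uncertain between its copies.

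All 6 genes of the matched block rose. The 2367-base gene had 10.5, 15.8 and 43.7 RPKM in controls and 277.3, 410.4 and 592.0 with pectin on LHCL01000121 (log2 fold change 4.30, edgeR adjusted p = 0.00477). Its partner on LHCL01000128 had 5.88, 7.12 and 20.01 RPKM in controls and 121.3, 190.5 and 220.5 with pectin (log2 fold change 4.13, edgeR adjusted p = 0.00338). Both had their highest control in control 3, and levels were higher on LHCL01000121 in each library. The 10- or 11-exon gene rose by 3.72 and 3.53 on the log2 scale and the 624-base gene by 3.83 and 4.15; with unique reads alone the latter rose by 3.65 and 3.85 (edgeR adjusted p = 0.00766 and 0.00116). Beyond the block the contigs parted: genes 6 and 7 of LHCL01000128 rose as well, while gene 4 of LHCL01000121, with 17.9 to 48.7 RPKM in controls and up to 48.3 with pectin, was not called.

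**Figure D5:**
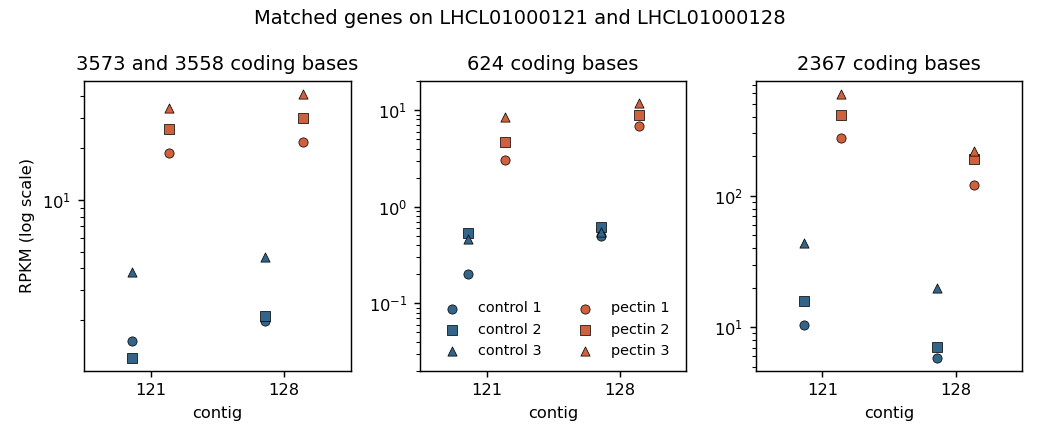
Points give the RPKM of each library, on log axes, for the 3 genes of the block on LHCL01000121 and the matching genes on LHCL01000128; blue is control, orange is pectin, and the marker shape gives the library number. In all 6 columns the pectin libraries lie above the controls; for the 2367-base gene the highest control is 43.7 RPKM and the lowest pectin library 277.3 on LHCL01000121.

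Other pairs matched as well. At contig starts, gene 1 of LHCL01000186 and the sole gene of LHCL01000138, a contig outside the chosen size range, share both their position, 29 to 346 on the minus strand, and their 318 coding bases, with 20.9% and 24.4% of reads not unique. They rose by 4.52 and 4.78 on the log2 scale (edgeR adjusted p = 0.00345 and 0.00365). Gene 1 of LHCL01000248 and gene 1 of LHCL01000362, both at 152 to 1047, rose by 1.47 and 1.95. Their annotated coding lengths differ, at 702 and 849 bases. A further pair at contig starts did not rise: gene 1 of LHCL01000212 (280 to 1858) and gene 1 of LHCL01000253 (273 to 1851). Both have 1503 coding bases and no shared reads. Neither was called, with log2 fold changes of −0.81 and −0.76 (edgeR adjusted p = 0.1126 and 0.09064). Gene 5 of LHCL01000187 and gene 4 of LHCL01000220, with 849 coding bases and 28.4% and 28.9% of reads not unique, lie away from the contig starts and were not called, with log2 fold changes of −0.48 and −0.32. On the same contigs gene 3 and gene 2, with 2640 and 2610 coding bases and no shared reads, also have like lengths, with log2 fold changes of −0.034 and −0.11, neither called. Whether these pairs are separate genes or 1 gene assembled more than once was not tested.

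Reads outside annotated exons, which the exon counts do not use, made up 16.5 ± 1.03% of gene reads on small contigs in control and 14.9 ± 1.23% with pectin, with overlapping groups (n = 3 each; permutation test over libraries, exact p = 0.3). On large contigs they made up 17.4 ± 1.87% and 14.6 ± 0.928% (exact permutation p = 0.1). Exon-exon junction reads were 31.7 ± 1.77% of exon reads in genes of several exons on small contigs in control and 30.2 ± 1.08% with pectin (exact permutation p = 0.2), below the 38.4 ± 0.459% and 40.6 ± 1.24% on large contigs in every library. Of the 204 small-contig genes with at least 600 reads outside exons over the 6 libraries, 21 (10.29%) had over 60% of their reads there, against 101 of 2141 (4.72%) on large contigs. Of the 21, 3 rose with pectin: gene 1 of LHCL01000195 and genes 4 and 5 of LHCL01000161. By comparison, 14.08% of all tested small-contig genes rose, with a background of 9.20%, so rises were not particular to these genes. Gene 5 of LHCL01000161, with 1 exon, had 1.75, 2.27 and 3.66 RPKM in controls and 147.0, 123.7 and 177.0 with pectin (log2 fold change 5.98, edgeR adjusted p = 0.000134), and 70.6% of its reads lay outside its exon. Strand use in counting is not given in the sources used here, so reads of a gene and of an antisense transcript could not be told apart.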

How the data were processed

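Per the labels' protocols, poly-T purified RNA of 3 control and 3 pectin cultures was read from both fragment ends. The authors deposited read counts per gene for exons, junctions and introns, and RPKM, per the file headers; how reads were aligned and counted, with which strand setting and on which build, is not given in these sources. Intron counts are called reads outside annotated exons, since genes of 1 exon have them too. Digit separators were removed from RPKM, which is not TMM scaled. Annotated lengths divide by 3 in 100% of genes and so are coding lengths; 0 pairs of neighbouring genes overlap. TPM columns were not used.

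For the gene test, edgeR 4.0.16 (R 4.3.3) took total exon reads with robust quasi-likelihood, TMM factors of 0.903 to 1.18 and filterByExpr by group; 9177 genes passed and 2149 did not; the biological coefficient of variation was 26.7%, and 20% for the 272 contigs tested by summed exon reads with the gene fit's library sizes. Both fits used all 6 libraries with no covariate, adjusted by Benjamini-Hochberg at 0.05, and were tested on simulated data. Standard errors given for edgeR are the absolute log2 fold change divided by the square root of the test's F statistic. They therefore restate the test and are not a separate estimate of spread. Per-library measures were compared by two-sided exact permutation tests (Python 3.11.15), where 3 against 3 cannot give p under 0.1. Libraries of one group differed by more than sampling noise (chi-square per degree of freedom 32.4 to 130). Where nothing says how separate the cultures were, p-values measure only the spread between these samples.

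The members, lists and tests were chosen with earlier results of these data known. Named were the 2 most abundant genes per direction (by mean CPM in the higher group, called and at least 2-fold), the 5 called contigs with the largest changes per direction, contigs with at least 3 tested genes all called one way, and the 3 contigs with the highest mean RPKM. Other genes and contigs, among them the matched blocks, LHCL01000109, LHCL01000127, LHCL01000161, LHCL01000173 and LHCL01000111, were chosen after their values were seen. Since no names are paired with the tags, lists by gene description could not be applied. Alternatives covered scaling, filter, test, threshold, replicate block, read type, contig size range and left-out libraries (DESeq2 1.42.0, limma 3.58.1, matplotlib 3.10.9).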

Additional observations from a re-analysis of the deposited data

How the results depend on the processing

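Alternatives that left out LHCL01000121, LHCL01000118 or the 2 contigs with most called genes were chosen after seeing the data. Small contigs had 79 genes higher and 49 lower; an adjusted p under 0.01 gave 51 and 16 and contigs of 3 to 10 genes 50 and 12; DESeq2's Wald test gave 74 lower and leaving out the 2 contigs with most falling genes 30 lower. With any 1 library removed there were 54 to 92 and 18 to 47, the lower genes numbering 28 without control 2, 28 without pectin 1, 18 without pectin 2 and 26 without pectin 3. The share called higher was then 9.49% to 16.3% on small and 2.99% to 9.69% on large contigs. For 18 higher and 8 lower contigs, the range of 1 to 20 genes gave 39 and 15; the lower count was 4 with 3 to 10 genes, 1 at an adjusted p under 0.01 and 0 with a demand of 2-fold. With 1 library removed, 16 to 20 contigs were higher and 3 to 8 lower, 3 without pectin 2 or pectin 3. For 468 higher and 382 lower genes on large contigs, library size alone gave 289 higher, a filter of 10 CPM 285, a demand of 2-fold 301, and the stricter adjusted p 135 and 88; with 1 library removed they numbered 164 to 528 and 93 to 426. The level difference of −1.28 was −1.47 with a pseudocount of 0.1 RPKM, −0.75 in genes past the filter only, −0.64 with contigs of 3 to 10 genes and −1.03 with 1 to 20. The change of 1.44 percentage points in read share was −0.26 without LHCL01000118, 0.48 with contigs of 3 to 10 genes (exact permutation p = 0.2) and 1.85 with 1 to 20, and 1.11 to 1.63 without 1 library. That of reads outside exons, −1.54, was −0.75 with contigs of 3 to 10 genes, −0.12 with 1 to 20 and −2.10 to −0.83 without 1 library. LHCL01000126, not called, went from −0.10 to 0.013 without control 3 and 0.12 without pectin 2, and to −0.33 without pectin 1. The named rises of genes and contigs kept direction and call in each refit. Stricter thresholds and narrower ranges lower counts by construction; otherwise the cause was not tested.

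Replicate numbers are shared between the groups but are not said to mark pairs. The deviations of libraries 1, 2 and 3 from their group means correlated between groups at 0.478, 0.073 and 0.432. Controls 1 and 3 and all 3 pectin libraries matched the library of their own number best, while control 2 matched pectin 3 best. As nothing says that the numbers mark pairs, the main fit did not take them as pairs. Whether libraries of the same number share a batch was not tested. A replicate block gave 93 higher and 83 lower genes and 14 lower contigs on small contigs, and 677 and 600 genes on large contigs. With 3 libraries a group, small changes and genes under the filter, 187 of 748, are beyond what these counts can show.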
